A study of Mus musculus with 8 samples.

Results

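The members described here are 6 genes used as identity markers of the upper layers of the cerebral cortex: the homeobox genes Cux1, Cux2, Pou3f2 (Brn2) and Lhx2, the nuclear receptor gene Rorb and the Ras exchange factor gene Rasgrf2. They were taken by name, and all 6 are rows of both deposited tables, among 17836 genes in 1 table and 15769 in the other. Single cells came from the frontal isocortex of mice at postnatal day 7 and were sorted for either of 2 reporters. The first, Drd1a-tdTomato (called D1Tom here), is a bacterial artificial chromosome transgene that marks cells with dopamine D1 receptor promoter activity, and the second is golli-τ-eGFP (called GTE here). Controls were Foxp2 flox/flox mice that had no Cre, whereas the conditional knockout mice (cKO) were Emx1-Cre; Foxp2 flox/flox. Every mouse, controls included, thus had floxed Foxp2 alleles and 1 of the reporters, on a background crossed to C57BL/6J. Emx1-Cre acts in the lineage of cortical excitatory neurons and of cortical astrocytes and part of the oligodendrocyte lineage, and not in that of cortical interneurons. Each sort had 2 control and 2 cKO libraries. In D1Tom, control 1 and cKO 1 shared a preparation day, as did control 2 and cKO 2, and only cKO 2 was from a male. In GTE both controls and cKO 1 were male and cKO 2 was female. The labels do not say whether a library held 1 animal or several, so p-values measure the spread between these libraries.

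As background, excitatory neurons of the cortex are born deep layers first and upper layers last, and neurons of layers 2 to 4 connect mainly within the cortex, many of them across the corpus callosum. CUX1 and CUX2 are related homeodomain proteins with CUT repeats that shape dendrites and synapses of upper layer neurons. POU3F2 is a POU domain factor of late progenitors and migrating upper layer neurons, and LHX2 is a LIM homeodomain factor of cortical progenitors that persists in upper layer neurons and in astrocytes. RORB marks layer 4 and is also transcribed in astrocytes, and RASGRF2 couples calcium signals to Ras in layer 2/3 neurons. FOXP2, the factor removed here, belongs to the forkhead family and is found mostly in deep layer neurons, above all of layer 6.

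The genes lie on 5 mouse chromosomes (GENCODE M21 positions on GRCm38, the build named in the submitters' processing notes). Cux1 is at chr5:136248135-136567490 and Cux2 at chr5:121856366-122050102, both on the minus strand. Pou3f2 is at chr4:22482780-22488366, Rorb at chr19:18930605-19111196 and Rasgrf2 at chr13:91880400-92131656, all on the minus strand, and Lhx2 is at chr2:38339281-38369733 on the plus strand. Of the 8 annotated genes that overlap Cux1, Cux2 or Lhx2, none is a row of either table. The counts are of 3' ends, so levels are compared for 1 gene across cells and libraries and not between genes.

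RefSeq promoter windows on GRCm38.p6, from 250 bases before to 50 after a transcription start, are given for Cux2, the member that was lower in the cKO libraries of both sorts, and for its relative Cux1. They were searched on both strands for a forkhead motif (TGTTTAC), an E-box (CAGATG) and the POU octamer (ATTTGCAT). Capitals mark a match, in either orientation.
Cux1, chr5:136565932-136566231, minus strand: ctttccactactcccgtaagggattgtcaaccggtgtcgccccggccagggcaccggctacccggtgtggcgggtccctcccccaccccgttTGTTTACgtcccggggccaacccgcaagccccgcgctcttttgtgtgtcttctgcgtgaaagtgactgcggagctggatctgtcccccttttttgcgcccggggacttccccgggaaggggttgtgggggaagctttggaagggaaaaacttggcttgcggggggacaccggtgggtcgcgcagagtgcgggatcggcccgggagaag
Cux2, upstream start, chr5:122049802-122050101, minus strand: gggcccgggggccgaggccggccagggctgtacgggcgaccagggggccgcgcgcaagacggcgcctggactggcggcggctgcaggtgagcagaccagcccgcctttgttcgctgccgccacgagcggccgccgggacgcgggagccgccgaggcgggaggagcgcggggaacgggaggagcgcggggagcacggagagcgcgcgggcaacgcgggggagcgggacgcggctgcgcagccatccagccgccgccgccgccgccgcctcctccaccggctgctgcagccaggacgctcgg
Cux2, downstream start, chr5:122047776-122048075, minus strand: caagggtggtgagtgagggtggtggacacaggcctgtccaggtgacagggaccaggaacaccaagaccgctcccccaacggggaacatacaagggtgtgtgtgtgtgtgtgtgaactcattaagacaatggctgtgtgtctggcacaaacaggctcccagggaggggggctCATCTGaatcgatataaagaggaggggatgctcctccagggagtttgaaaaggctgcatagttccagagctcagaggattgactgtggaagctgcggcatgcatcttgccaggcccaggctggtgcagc
The Cux1 window holds the forkhead motif, which 3.65% of all 32851 windows hold. The downstream Cux2 window holds the E-box, which 17.2% of windows hold, and the upstream one holds none of the 3. Of the other members' windows, the second of Lhx2 holds the E-box and those of Pou3f2, Rorb and Rasgrf2 hold no match, and the octamer, present in 1.74% of all windows, is in no member's window. The upstream Cux2 window has 48 CG dinucleotides and the downstream one 4, against a median of 7 over all windows. A match describes letters only and says nothing on binding.

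Depth differed between the sorts. D1Tom libraries held 2395 to 3206 cells with a median of 7198 to 12815 counts per cell, and GTE libraries held 1440 to 3948 cells with a median of 1085.5 to 2982. Between any pair of libraries of 1 sort, 14 to 26 cell barcodes were shared in D1Tom and 4 to 27 in GTE. Excitatory neurons, classed by counts of fixed markers, made up 24.4% and 31.7% of cells in D1Tom control 1 and 2 and 15.9% and 13.7% in cKO 1 and 2, while in GTE they were 1.32% to 3.81% of cells. GTE cKO 1 stood apart, with 44.9% astrocytes or radial progenitors and 37.6% oligodendrocyte precursors against 11.5% to 18.1% and 3.44% to 6.81% in the other 3 GTE libraries. Foxp2, the targeted gene, was at 52.4 and 44.9 CPM (its counts scaled to the same total of all counts in each library or cell class) in excitatory cells of D1Tom control 1 and 2 and at 11.3 and 13.6 in cKO 1 and 2 (log2 −1.96, SE 0.19, edgeR adjusted p = 0.771, and 8.17e-05 with the replicate block). Whether the counted 3' ends lie in the deleted part is not given in the sources used here.

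Excitatory cells were then divided by markers that include no member, and D1Tom gave 383 cells of an upper layer type (Mdga1, Inhba, Limch1, Unc5d, Pvrl3, Wfs1, Calb1 and others), of which control 1 and 2 gave 137 and 130 and cKO 1 and 2 gave 62 and 54. For 113 of them the best and next marker scores lay close together, so the type is a range of a score rather than a sharp class. The other types with at least 30 cells in each library were layer 5 pyramidal tract (325 cells), layer 6 corticothalamic (359) and a type marked by Slc30a3 and Oprk1 (243). A further 967 excitatory cells had no leading list, and a layer 4 type had only 29 cells. Of the upper layer cells, 251 (65.5%) fell in 1 cluster, numbered 7, which was made without the members and led by Ntf3, Inhba, Hspb3, Lpl, Rax and Neurod1. No cluster earned the upper layer name under the marker rule, so this cluster is called by its number.

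Cux2 gave the widest separation of the upper layer type from the others. Upper layer cells had 162.0 CPM of it (control 1), 143.3 (control 2), 125.3 (cKO 1) and 63.3 (cKO 2). In layer 6 corticothalamic cells it was at 12.3, 23.7, 5.00 and 7.75 CPM in the same order, and in layer 5 pyramidal tract cells at 37.0, 34.7, 5.14 and 17.4. Every upper layer value was above every value of these 2 types. Tested within libraries (edgeR quasi-likelihood test with library as a block, marker genes left out of the adjustment), Cux2 was higher by 3.37 on the log2 scale against layer 6 (SE 0.27, adjusted p = 7.06e-12), by 2.41 against layer 5 (SE 0.22, adjusted p = 7.55e-10) and by 1.61 against the Slc30a3 Oprk1 type (SE 0.23, adjusted p = 9.91e-06). With DESeq2 the last contrast was 1.45 and no longer passed (adjusted p = 0.0900).

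Cux1 and Pou3f2 were likewise higher in the upper layer type against all 3 other types. Cux1 was at 227.0, 200.0, 215.6 and 136.5 CPM in upper layer cells of control 1, control 2, cKO 1 and cKO 2, against 45.0 to 89.4 in the Slc30a3 Oprk1 type, 47.0 to 76.7 in layer 6 and 26.4 to 71.2 in layer 5. The ranges did not overlap in any of the 3 comparisons. The log2 differences were 1.50 (SE 0.19, adjusted p = 2.20e-06), 1.87 (SE 0.19, adjusted p = 3.11e-09) and 1.97 (SE 0.18, adjusted p = 8.69e-10). Pou3f2 was at 330.8, 256.8, 266.9 and 213.9 CPM in upper layer cells, again above every value of the other types, the highest of which was 145.0 in layer 5. Its differences were 1.32 against the Slc30a3 Oprk1 type (SE 0.14, adjusted p = 5.80e-08), 1.33 against layer 5 (SE 0.13, adjusted p = 1.22e-09) and 1.91 against layer 6 (SE 0.14, adjusted p = 1.10e-12).

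**Figure D1:**
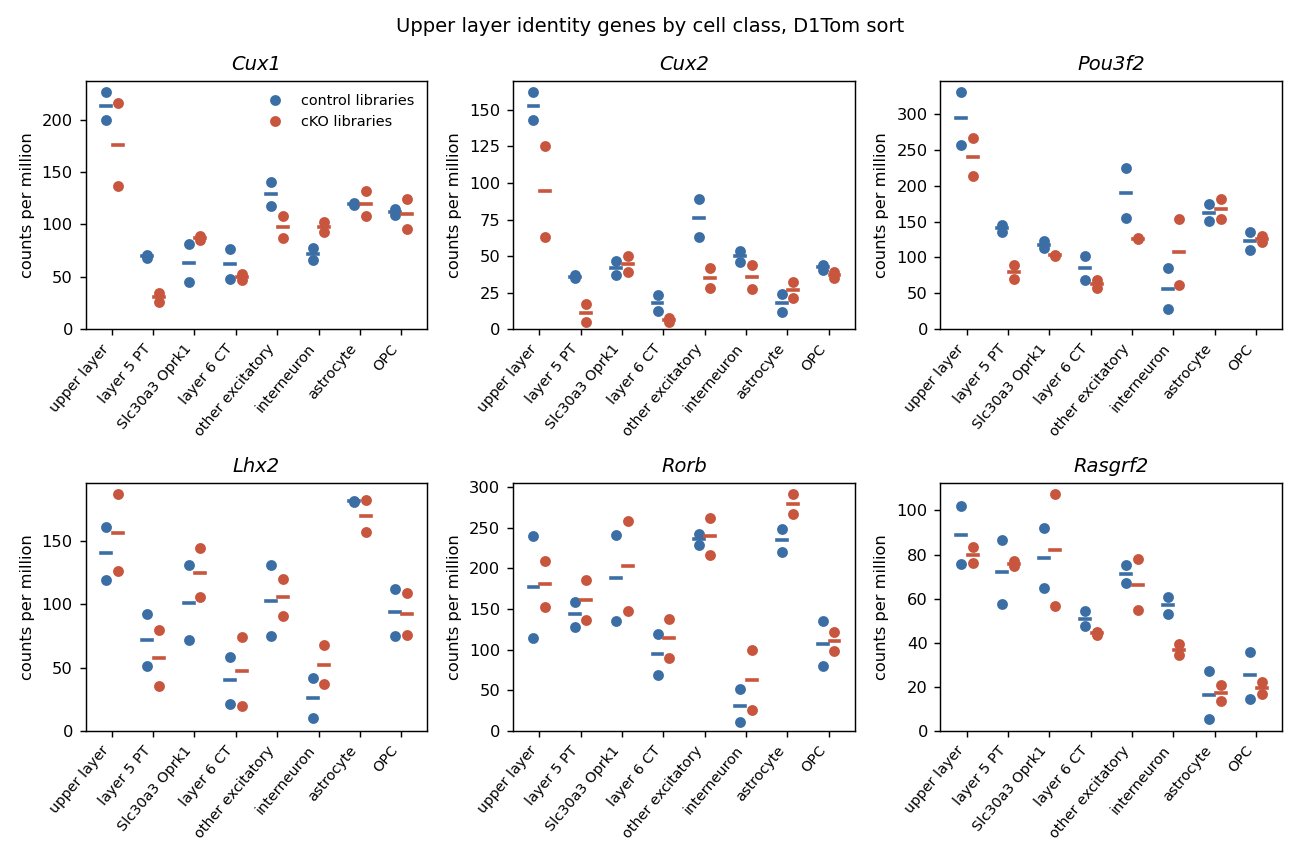
Level of each gene in CPM (vertical axis, starting at 0 and scaled per gene) by cell class in D1Tom, with 1 point per library, controls in blue and cKO in red, and a bar at the mean of the 2 libraries. PT is pyramidal tract, CT corticothalamic and OPC oligodendrocyte precursor. Cux1, Cux2 and Pou3f2 have their highest means in the upper layer type, while Rorb and Lhx2 are as high or higher in astrocytes.

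The other 3 members separated the types less. Lhx2 was at 119.4, 161.0, 126.0 and 187.2 CPM in upper layer cells and at 21.2, 58.6, 20.0 and 74.4 in layer 6, a log2 difference of 1.93 (SE 0.17, adjusted p = 9.87e-11). Against layer 5 it was higher by 1.25 (SE 0.15, adjusted p = 1.48e-07), and against the Slc30a3 Oprk1 type the difference of 0.43 missed the threshold (SE 0.15, adjusted p = 0.122) although it was positive in 4 of 4 libraries, and it passed without the filter on low counts (edgeR adjusted p = 0.0134). In each genotype the second library was the higher for Lhx2 in these types, and the second libraries shared a preparation day. Rorb was higher in upper layer than in layer 6 cells (log2 0.86, SE 0.14, adjusted p = 1.37e-05), at 114.1, 240.0, 208.5 and 152.0 CPM against 69.0, 119.0, 90.0 and 137.9, but it missed the threshold against layer 5 (0.29, SE 0.13, adjusted p = 0.127) and the Slc30a3 Oprk1 type (−0.05, SE 0.13, adjusted p = 0.922). Rorb was higher than in layer 5 in 2 of 4 libraries. Without control 1 or without cKO 2 the contrast of Rorb with layer 5 passed, at 0.44 (edgeR adjusted p = 0.0285) and 0.39 (edgeR adjusted p = 0.0438). Without control 2 or without cKO 1 it missed the threshold, at 0.14 and 0.16. Rasgrf2 also passed against layer 6 only, with 0.83 against layer 6 (SE 0.14, adjusted p = 2.16e-05), 0.27 against layer 5 (SE 0.12, adjusted p = 0.158) and 0.08 against the Slc30a3 Oprk1 type (SE 0.13, adjusted p = 0.867).

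Thus 6 of 6 members were called higher in the upper layer type than in layer 6, 4 of 6 than in layer 5 and 3 of 6 than in the Slc30a3 Oprk1 type, and none was called lower. Over the 10581 genes tested, the shares called higher were 6.8%, 6.74% and 1.63%, and the shares called lower 6.54%, 7.02% and 2.34%. The members' median log2 differences were 1.89, 1.29 and 0.88, against 0.00, 0.02 and 0.01 over all genes. With the 2 control libraries alone the counts were again 6, 4 and 3, where 517, 241 and 75 of 11277 genes were called higher.

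**Figure D2:**
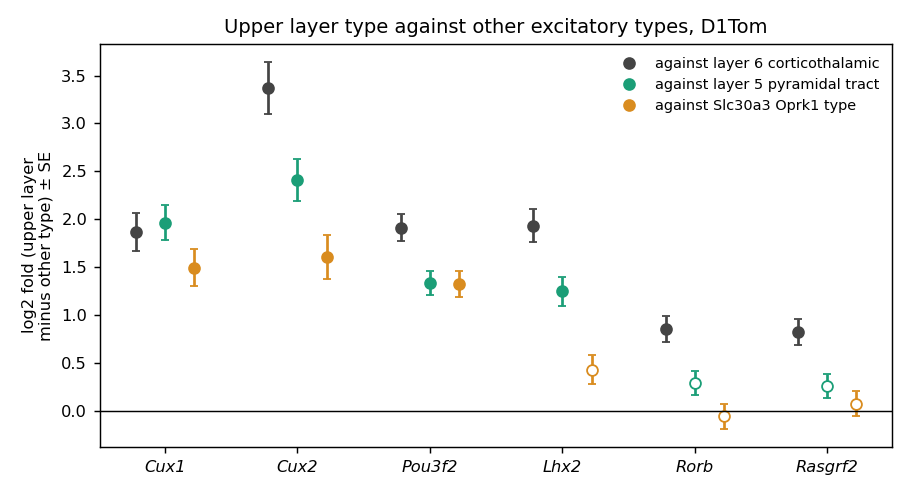
Log2 difference of the upper layer type minus each other excitatory type in D1Tom (vertical axis) for the 6 genes, with standard errors derived from the edgeR F statistic, 4 libraries per type. Filled points passed an adjusted p of 0.05 and open points did not, and the contrast with layer 6 is filled for all 6 genes.

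Across 10 classes of D1Tom cells with at least 30 cells per library, the upper layer type had the highest mean of Cux1 (195 CPM, SD 40.4, n = 4 libraries), Cux2 (123, SD 42.8), Pou3f2 (267, SD 48.3) and Rasgrf2 (84.3, SD 12.4). Radial progenitors came next for Cux1 (125, SD 24.5) and Pou3f2 (196, SD 50.1), unassigned excitatory cells for Cux2 (55.6, SD 26.6) and the Slc30a3 Oprk1 type for Rasgrf2 (80.3, SD 23.6). Lhx2 was highest in radial progenitors (177, SD 31.6) and astrocytes (176, SD 12.2), and the upper layer type was the third (148, SD 31.7). Rorb was highest in astrocytes (257, SD 30.1), and the upper layer type was the fifth (179, SD 56.4). The ranges of neighbours in each order overlapped for every gene, save that all 4 unassigned excitatory values of Rasgrf2 (54.7 to 77.9 CPM) were above the 4 values in layer 6 (43.4 to 54.2). The lowest means were in layer 5 for Cux1 (50.0), layer 6 for Cux2 (12.2), Cajal-Retzius cells for Pou3f2 (54.5), interneurons for Lhx2 (39.1) and Rorb (47.0), and radial progenitors for Rasgrf2 (13.4). In the small layer 4 type Rorb, a layer 4 marker, had a mean of 373 CPM over libraries of 6 to 9 cells.

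The members differed in how many upper layer cells had a count. After each cell was thinned to 1000 counts, a depth that all cells of these types reached, Pou3f2 had a count in 20.6% of the 383 upper layer cells (exact 95% binomial interval 16.7% to 25.0%), Cux1 in 19.3% (15.5% to 23.6%), Rorb in 15.1% (11.7% to 19.1%), Lhx2 in 12.0% (8.93% to 15.7%), Cux2 in 8.88% (6.23% to 12.2%) and Rasgrf2 in 7.83% (5.35% to 11.0%). The intervals cover counting error only. Without thinning, at a median of 19290 counts per cell, the shares were 79.4%, 77.5%, 54.8%, 66.1%, 56.4% and 56.9%. Endothelial cells, with a like median of 19545 counts and no known upper layer programme, gave unthinned shares of 24.3% for Pou3f2, 30.2% for Rorb, 26.0% for Lhx2, 7.69% for Cux2 and 15.4% for Rasgrf2. Cux1 had a count in 72.8% of endothelial cells, close to its share in upper layer cells, and is transcribed in many cell types. The thinned Cux2 share was 0.592% in endothelial cells (0.0150% to 3.25%), 3.20% in microglia (0.879% to 7.99%), 1.39% in layer 6 cells (0.454% to 3.22%) and 4.62% in layer 5 cells (2.61% to 7.50%). The interval of the upper layer type lay above that of endothelial cells and layer 6 but overlapped those of layer 5 and microglia at this depth. At 500 and 2000 counts it was 6.01% to 11.9% and 16.1% to 24.3%. These lay above layer 5 (upper ends 3.55% and 10.1%) and microglia (4.38% and 7.99%). Thinning was 1 random draw per depth, and the overlap was seen at 1000 counts only. Without thinning, Cux2 had a count in 25.2% of layer 5, 13.1% of layer 6 and 11.2% of microglial cells, at median depths of 24237, 15931 and 10358 counts. Of the 383 upper layer cells, 191 had both Cux1 and Cux2 (49.9%, against 43.7% from the product of their shares), and 122 had both Cux2 and Rorb (31.9% against 30.9%), with no test made over cells.

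Over the 16 sums of type and library in D1Tom excitatory cells, Cux2 followed Pou3f2 most closely of 7124 genes (Pearson r = 0.94 on log2(CPM + 1)), with 2900055J20Rik (0.93) and Limch1 (0.92) next. Cux1 was most like Limch1 (0.93), Tuba1a (0.90) and Pou3f2 (0.89), and Pou3f2 was most like Cux2, Rfx3 (0.93) and Pvrl3 (0.91). Limch1 and Pvrl3 are markers that defined the upper layer type. Lhx2 was most like Thsd7a (0.90), Chst2 (0.88) and Ptn (0.87), Rorb most like Wsb2 (0.87), B4galt2 (0.83) and Lhx2 (0.79), and Rasgrf2 most like Zbtb18 (0.84), Fam78b (0.84) and Bhlhe22 (0.84). Bhlhe22 is among the markers that defined excitatory cells. Among the members themselves r was 0.89 to 0.94 within Cux1, Cux2 and Pou3f2, and 0.35 to 0.49 between these and Rorb. These points share libraries and depth, and the values describe these sums only.

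Between genotypes, Cux2 was the member with lower levels in the cKO libraries of both sorts. Its level over all cells of the D1Tom sort was 46.3 CPM (control 1), 45.9 (control 2), 32.1 (cKO 1) and 31.1 (cKO 2). Excitatory cells gave 68.2, 62.4, 41.0 and 34.6 CPM in that order, and all cells of GTE gave 36.6, 37.3, 28.2 and 16.1. Both cKO values were below both control values in each of the 3. The log2 differences were −0.48 in all D1Tom cells (SE 0.14, edgeR adjusted p = 0.998), −0.77 in excitatory cells (SE 0.13, edgeR adjusted p = 1.00) and −1.19 in GTE (SE 0.52, edgeR adjusted p = 0.896). None passed the threshold without a batch term. With the replicate number, which is the preparation day in D1Tom, as a block, the excitatory difference of −0.77 passed (SE 0.11, edgeR adjusted p = 0.0138) and Cux2 was the 1 member among the 0.326% of genes called in that fit, while the difference over all cells did not (edgeR adjusted p = 0.326), in a fit that called 0.00689% of genes and 0 members. The difference between the sorts was itself tested, and the effect in GTE minus that in D1Tom was −0.71 for Cux2 (SE 0.40, edgeR adjusted p = 0.941).

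The excitatory share of cells was lower in the D1Tom cKO libraries (24.4% and 31.7% against 15.9% and 13.7%), as was the upper layer share of excitatory cells (17.5% and 17.1% against 13.9% and 12.8%), so in sums over mixed cells fewer cells of a type and less RNA per cell cannot be told apart. Of the upper layer type's own cells, 74.5% and 66.9% fell in cluster 7 in control 1 and 2, against 62.9% and 42.6% in cKO 1 and 2. Within the upper layer type the Cux2 values given above did not overlap between genotypes, with a log2 difference of −0.68 (SE 0.28, edgeR adjusted p = 1.00, and 0.0672 with the replicate block). Without cKO 2, the library at 63.3 CPM, it was −0.34, and without cKO 1 it was −1.26. Of 15 deep layer genes tested in the upper layer type, 9 had a positive and 6 a negative difference, 0 were called by edgeR, the median was 0.17 against 0.00 over all genes, and 3 were above both controls in both cKO libraries, where 15.8% of all genes were. Bcl11b, a layer 5 transcription factor gene, was at 8.36, 58.8, 121 and 142 CPM (log2 1.96, SE 0.67), and Fezf2, a layer 5 zinc finger gene, at 6.46, 27.3, 28.5 and 46.4 (1.10, SE 0.61), both named after their values were seen. Fezf2 and many other genes of the list, though not Bcl11b, are also deep layer markers of the rule that classed these cells. Their levels in the type, and with them the list's counts and median, depend in part on that rule. Bcl11b and Fezf2 do not stand for the list, and the part of cell make-up in the Cux2 difference of the type was not tested. In cluster 7 Cux2 was at 152.4, 123.1, 99.7 and 80.2 CPM, a difference of −0.64 (SE 0.18, edgeR adjusted p = 0.999, and 0.0855 with the block). Both cKO values of cluster 7 were below both control values, as for 11.4% of genes, and the block called 0.215% of genes there. In the unassigned excitatory cells it was at 89.2, 63.1, 28.3 and 41.7 CPM and in layer 6 at the low values above, while in the Slc30a3 Oprk1 type it was at 37.0, 46.8, 50.0 and 39.4 CPM, with groups that overlap. Outside the excitatory cells, Cux2 was at 45.9, 53.7, 43.7 and 27.4 CPM in interneurons, 44.0, 40.5, 35.2 and 38.9 in oligodendrocyte precursors and 11.9, 24.0, 21.2 and 32.4 in astrocytes. These 3 classes were not fitted.

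**Figure D3:**
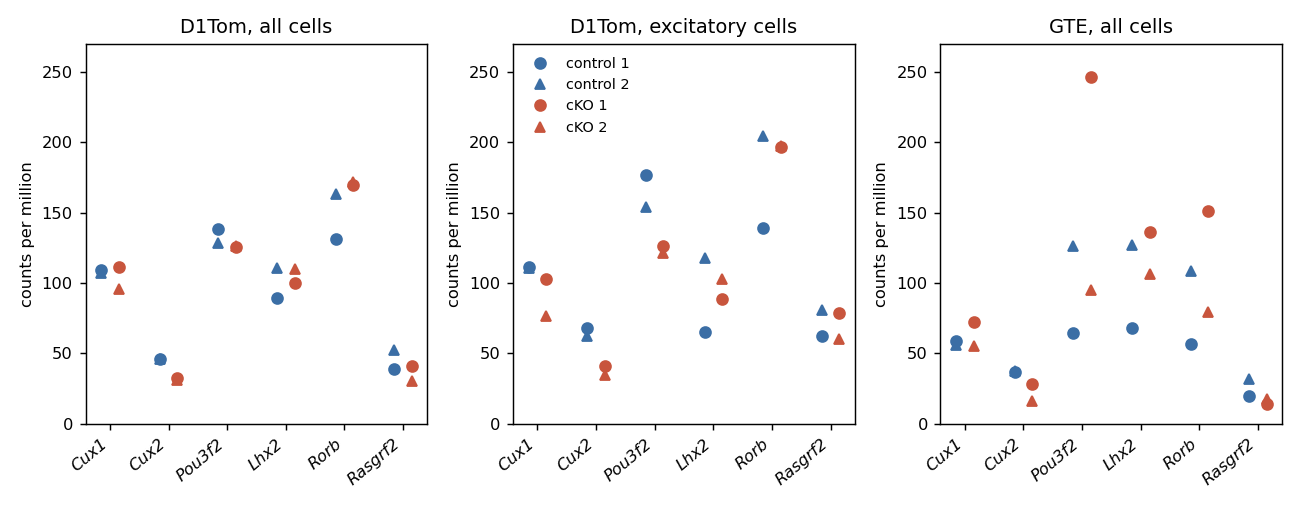
Level of each gene in CPM (vertical axis) in the 4 libraries of each sort, over all D1Tom cells, D1Tom excitatory cells and all GTE cells. Controls are blue, cKO red, replicate 1 a circle and replicate 2 a triangle, and Cux2 is below both controls in both cKO libraries of all 3 panels.

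Pou3f2 and Cux1 also had lower values in both cKO libraries in excitatory cells, and neither passed the threshold. Pou3f2 was at 176.8 and 153.7 CPM in excitatory cells of control 1 and 2 and at 126.5 and 121.4 in cKO 1 and 2 (log2 −0.39, SE 0.13, edgeR adjusted p = 1.00), and Cux1 was at 111.2, 110.7, 102.6 and 76.5 (−0.29, SE 0.15, edgeR adjusted p = 1.00). Their groups did not overlap. Over all D1Tom cells Cux1 differed by −0.00 (SE 0.13), with overlapping groups, and Pou3f2 by −0.01 (SE 0.15), at 138.4, 128.5, 125.6 and 126.6 CPM. In the upper layer type the differences were −0.28 for Cux1 (SE 0.23) and −0.30 for Pou3f2 (SE 0.20), with overlapping groups. Lhx2, Rorb and Rasgrf2 in excitatory cells differed by 0.09 (SE 0.30), 0.21 (SE 0.21) and −0.03 (SE 0.19), with 65.2, 117.8, 88.9 and 103.1 CPM of Lhx2, 138.8, 204.8, 196.9 and 197.1 of Rorb and 62.3, 80.6, 78.6 and 60.3 of Rasgrf2. Each of these 3 had overlapping groups, also in the upper layer type, where the differences were 0.13 (SE 0.26), 0.02 (SE 0.34) and −0.17 (SE 0.23).

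In all D1Tom cells and in excitatory cells edgeR called 0 of 6 members and 0% of genes in either direction. DESeq2 also called 0 members, with 0.139% and 0.0429% of genes called, and 1 member in all cells and 2 in excitatory cells had an unadjusted p under 0.05. Both cKO libraries were below both controls for Cux2 and Pou3f2 in all cells, where 13.7% of genes were, and for Cux1, Cux2 and Pou3f2 in excitatory cells, where 11.9% were. No member was above both controls in both cKO libraries of excitatory cells, where 9.98% of genes were. Rorb was above both controls in both cKO libraries over all cells, with 131.4, 163.5, 169.4 and 171.7 CPM, controls first (log2 0.27, SE 0.20), where 9.72% of genes were. The members' median log2 difference was −0.16 in excitatory cells against 0.00 over all genes, and −0.01 in all cells against −0.01. On counts simulated from these libraries the same test recovered 42% of genes changed by 1 and 82.8% of those changed by 2 on the log2 scale over all cells. For the upper layer type the shares were 30.3% and 81.4%, with 4 false calls. Each simulated gene had the spread fitted to genes of like level, and no preparation-day effect was simulated. The shares therefore do not give the power of the test on the real counts.

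Of the 4 types fitted, layer 5 pyramidal tract had the largest differences for Cux1, Cux2 and Pou3f2. Controls 1 and 2 had 67.6 and 71.2 CPM of Cux1, against 26.4 and 34.9 in cKO 1 and 2 (log2 −1.22, SE 0.23), Cux2 at 37.0 and 34.7 against 5.14 and 17.4 (−1.79, SE 0.46) and Pou3f2 at 145.0 and 135.8 against 69.5 and 89.1 (−0.85, SE 0.19). The edgeR adjusted p of each was 1.00 without a block, and 1.56e-05, 1.07e-05 and 1.13e-04 with the replicate block, where 0.726% of genes were called. Once the block is fitted, the libraries leave little from which to estimate the spread of a gene. Its p-values therefore lean on the spread of other genes, and only cKO 2 was male. The same 3 members were also called when no filter on low counts was applied, in a fit that called 27 of 14838 genes. The Cux2 difference was −1.03 without cKO 1 and −2.84 without cKO 2. Of the cells of this type, 38.0% and 18.4% fell in cluster 7 in control 1 and 2, against 6.82% and 12.5% in cKO 1 and 2. Cluster 7 is the one that holds most upper layer cells. Without the cells of cluster 7, an alternative chosen after seeing the data, the differences were −0.61 for Cux1 (SE 0.36), −1.33 for Cux2 (SE 0.68) and −0.49 for Pou3f2 (SE 0.21), and 0 of 6 members were called with the block (edgeR adjusted p = 0.959 for each of the 3). That fit called 3 of 10397 genes (0.0289%), against 78 of 10739 with the cells kept. Leaving cluster 7 out took the type from 100 and 125 to 62 and 102 cells in control 1 and 2. In cKO 1 and 2 it went from 44 and 56 to 41 and 49 cells. The part of cell make-up in the layer 5 differences was not tested. Outside cluster 7, layer 5 Cux2 rested on few counts: 13 (control 1), 48 (control 2), 7 (cKO 1) and 6 (cKO 2). These gave 6.37, 21.3, 4.73 and 6.70 CPM, and Cux1 gave 27.4, 51.5, 23.0 and 30.2 in that order. For both genes control 1 lay below cKO 2, and only control 2 exceeded both cKO libraries. Pou3f2 still had separate groups, with control values of 104.8 and 112.3 CPM against 66.2 and 90.5. In layer 6 cells the Cux2 values given earlier for that type gave −1.48 (SE 0.61, edgeR adjusted p = 1.00), and Cux1 and Pou3f2 differed by −0.29 (SE 0.32) and −0.42 (SE 0.29). The Cux2 difference there rests on few counts, as 47 of the 359 layer 6 cells had one. In the Slc30a3 Oprk1 type Cux1 was at 45.0, 80.8, 89.4 and 85.3 CPM (0.49, SE 0.30) and Pou3f2 at 113.5, 122.3, 102.5 and 102.8 (−0.19, SE 0.21). No member passed the threshold in these 2 types, with or without the block, which called 0.421% of genes in layer 6 and 0.252% in the Slc30a3 Oprk1 type, or in the upper layer type, where it called 0.35%. DESeq2 called 0 members in each of the 4 types and 0.00681% of genes in the upper layer type, 0.0135% in layer 5, 0.0137% in layer 6 and 0.00696% in the Slc30a3 Oprk1 type. Both cKO libraries were below both controls for 1 member in the upper layer type, 3 in layer 5, 3 in layer 6 and 1 in the Slc30a3 Oprk1 type, where 13.7%, 13.5%, 16.5% and 15.1% of genes were. Among clusters, the block called Cux2 over the excitatory clusters together (log2 −0.91, SE 0.11, edgeR adjusted p = 6.96e-04, with 0.733% of genes called), and it called Lhx2 higher in cluster 14 (1.01, SE 0.26, edgeR adjusted p = 0.0131, with 1.37% of genes called), where Lhx2 was at 8.02, 58.7, 43.3 and 67.7 CPM and the groups overlapped. The marker rule named cluster 14 layer 6b or subplate, but it held 163 cells classed as layer 6 corticothalamic and 55 classed as layer 6b or subplate. Both cKO libraries of a type were above both controls for Cux1 in the Slc30a3 Oprk1 type, where 13.5% of genes were, and for 0 members in the other 3 types, where 15.8%, 16.6% and 11% were.

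**Figure D4:**
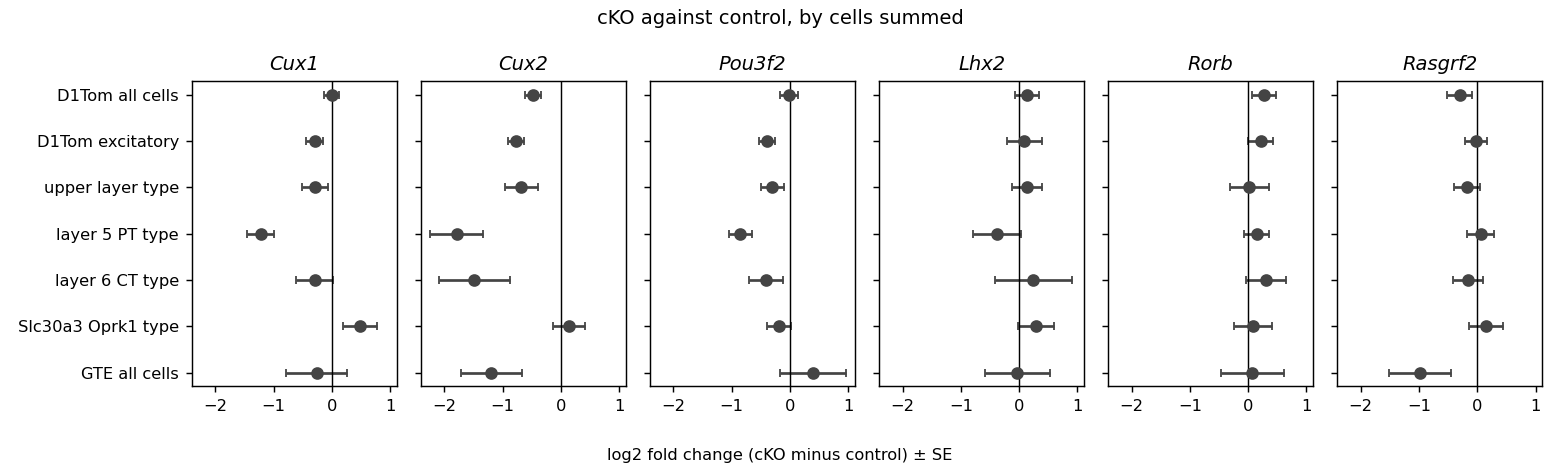
Log2 difference of cKO minus control (horizontal axis) with standard errors derived from the edgeR F statistic for each gene, one row per set of summed cells, 2 libraries against 2. Cux2 lies below 0 in every row but the Slc30a3 Oprk1 type, and Rorb lies near or above 0 throughout.

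In GTE edgeR called 0 of 6 members, where 0.0249% of genes were called lower and 0.0083% higher, 1 member had an unadjusted p under 0.05 and DESeq2 called none (0.0127% of genes). Both cKO libraries were below both controls for Cux2 and Rasgrf2, where 6.66% of genes were, and above them for 0 members, where 19.6% were. Rasgrf2 had 19.7 and 31.6 CPM as control values and 14.2 and 17.3 as cKO values (log2 −0.99, SE 0.53, adjusted p = 0.962). Pou3f2, at 64.2, 126.5, 246.5 and 95.3 CPM, and Rorb, at 56.6, 108.6, 151.3 and 79.2, were highest in cKO 1, the library rich in astrocytes, and Lhx2, at 68.3, 127.3, 136.3 and 106.4, was highest there as well. Their differences were 0.39 (SE 0.57), 0.07 (SE 0.54) and −0.03 (SE 0.56), and that of Cux1, at 59.1, 55.8, 72.6 and 55.2 CPM, was −0.26 (SE 0.53). Astrocytes of GTE cKO 1 had 346 CPM of Pou3f2, 275 of Rorb and 204 of Lhx2, while Cux2 was at 13.8 CPM in them. In GTE astrocytes Cux2 was at 31.5, 38.4, 13.8 and 14.1 CPM. The part of cell composition in the GTE values was not tested. With 88, 117, 19 and 83 excitatory cells per library, excitatory cells and their types were not fitted in GTE. No member had a genotype difference that itself differed between the sorts (0 of 6 with edgeR, where 0% of 14026 genes were called, 0 of 6 with DESeq2 and 0 of 6 with an unadjusted p under 0.05).

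Other genes of the layers were summarised over lists. Of 24 other upper layer or callosal genes, 22 were tested over all D1Tom cells, 16 had a negative and 6 a positive difference, and 0 were called by edgeR (2 with an unadjusted p under 0.05, median −0.17 against −0.01 over all genes). Inhba, an activin subunit, was at 33.2, 35.6, 26.3 and 14.8 CPM (log2 −0.70, SE 0.23), and Calb1, a calcium buffer, at 7.39, 9.06, 13.8 and 9.70 (0.56, SE 0.23). Of 20 deep layer genes 19 were tested, 14 had a negative and 5 a positive difference and 0 were called (median −0.19). Ntsr1, a layer 6 receptor gene, was at 18.4, 13.6, 12.1 and 7.98 CPM (−0.62, SE 0.22), Cplx3, a subplate complexin, at 9.68, 9.31, 3.36 and 5.67 (−0.98, SE 0.35) and Hs3st4, a sulfotransferase of deep layers, at 48.8, 56.9, 34.4 and 38.4 (−0.47, SE 0.19). In excitatory cells the medians were −0.09 for the upper and −0.05 for the deep list, with 16 of 22 and 10 of 19 genes negative and 0 called.

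Of 9 related genes of the members' families or CUT-domain relatives, 8 were tested over all D1Tom cells, 5 with a positive and 3 with a negative difference, and 0 were called. Pou3f4 was at 15.4, 12.1, 18.8 and 22.5 CPM (log2 0.67, SE 0.22) and Pou3f1, a gene used here as a layer 5 marker, at 79.1, 114.2, 63.7 and 57.9 (−0.62, SE 0.23). Pou3f3, named to complete this POU family, was at 201, 211, 225 and 231 CPM (0.21, SE 0.17). In GTE Pou3f4 was at 7.88, 7.79, 52.3 and 19.1 CPM (1.66, SE 0.55, edgeR adjusted p = 0.695).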

How the data were processed

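Single cells of 8 libraries (2 sorts, 2 genotypes, 2 libraries per group) were measured with a 3' droplet kit. The authors deposited tables of counts per gene and cell. Per the submitters' processing notes the tools included Cell Ranger 2.1.1, STAR 2.5.2b, UMI-tools 0.5.4 and featureCounts, with mm10 and GRCm38.p6 as builds, and whether counting used strand is not given in the sources used here. Values of 2 were 0.307 to 1.69 times as frequent as values of 1, so no Poisson intervals were used. In D1Tom this ratio was 1.69 and 1.54 in control 1 and cKO 1, and 0.723 and 0.307 in control 2 and cKO 2. How far a count, thinned or not, means the same in each library was not tested.

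Cells were classed by the best mean standardised log score over fixed marker lists without the 6 members, with a score of at least 0.2 and at least 2 markers detected. Excitatory cells were then classed again by type. Clusters (scanpy 1.11.5, Leiden, 500 counts per cell, 2000 variable genes, 30 components, 20 neighbours) were the alternative. Doublets were scored and kept, and leaving out the highest scores (0.8% per 1000 cells) was an alternative. Counts were summed per library and tested with edgeR 4.0.16 (TMM factors, filterByExpr, quasi-likelihood test, Benjamini-Hochberg at 0.05 over all genes tested), with DESeq2 1.42.0 as an alternative. The edgeR test gives no standard error, so each SE is the size of the log2 difference divided by the square root of its F statistic. Total counts per library were 27323298 to 36379194 in D1Tom and 4878370 to 6092396 in GTE. Same-numbered D1Tom libraries shared a preparation day per the labels, and their deviations from group means correlated at 0.50 over all cells and 0.59 over excitatory cells. All fits with the replicate block leave little from which to estimate the spread of a gene, so their p-values lean on the spread of other genes. The day wording for GTE contradicts the labelled sexes, so no GTE pairing was taken from it. The test was tried on simulated counts.

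The members and lists were chosen with earlier results of these data known. Named are the members, up to 3 genes of each related list with the smallest p over all D1Tom cells, the 3 genes most alike to each member among those with a mean of at least 20 CPM, and Foxp2. Of the related genes, 1 that this rule names is not reported here.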

Additional observations from a re-analysis of the deposited data

Results flagged for a closer look

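Cux1 moved in opposite directions in 2 excitatory types of D1Tom, and the difference between the types was not tested. In the layer 5 pyramidal tract type both cKO libraries were below both controls, with a log2 difference of −1.22. In the Slc30a3 Oprk1 type both cKO libraries were above both controls, with a log2 difference of 0.49, where control 1 alone was low (45.0 CPM against 80.8 in control 2, 89.4 in cKO 1 and 85.3 in cKO 2). Neither passed the edgeR threshold without a block. With the replicate block, which is the preparation day, the layer 5 difference passed (edgeR adjusted p = 1.56e-05) and the other did not (edgeR adjusted p = 0.643), and without the filter on low counts the layer 5 difference also passed (edgeR adjusted p = 0.00139). The layer 5 type held more cells of cluster 7 in the controls, as given in the report, and their part in the Cux1 difference was not tested.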

How the results depend on the processing

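With only 2 libraries per group, a missed threshold does not show equality, and depth limits GTE, where excitatory cells, their types and the type contrast were not run for lack of cells, and D1Tom, where layer 4 and layer 6b were not fitted. No cluster took the upper layer name, so the type contrast has no value from clusters. The type contrast gave 13 calls of 18 as reported, 13 to 14 with 1 library left out, and stayed within 1.5 times of 13 in its other alternatives. Comparisons of genotype called 0 members as reported. With the replicate block 1 member was called in D1Tom excitatory cells (0.326% of genes) and 3 in the layer 5 type (0.726%). Without the filter on low counts 3 were called in the layer 5 type (27 of 14838 genes). With types from clusters the replicate block called 1 over the excitatory clusters (0.733%) and 1 in single clusters, in cluster 14 (1.37%). This pair of settings was chosen after seeing the data. The block changed no other call of a member, and 0 were called with any 1 library left out. The crossed replicate block in GTE, chosen after seeing the data because same-numbered GTE libraries deviated oppositely (correlation −0.35), called 0 members and 24 genes, against 4 genes as reported and 0 with the replicate block.

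Directions that turned were all of differences that missed the threshold. With 1 library left out, log2 differences over all D1Tom cells ranged from −0.054 to 0.35 for Lhx2, −0.043 to 0.032 for Cux1 and −0.13 to 0.10 for Pou3f2. In D1Tom excitatory cells they ranged from −0.29 to 0.59 for Lhx2, −0.052 to 0.54 for Rorb and −0.22 to 0.19 for Rasgrf2, which was 0.0025 with types from clusters. In GTE they ranged from −0.44 to 0.0052 for Cux1, −0.17 to 0.40 for Rorb and −0.25 to 0.28 for Lhx2. In the upper layer type they ranged from −0.20 to 0.43 for Lhx2, −0.43 to 0.65 for Rorb and −0.38 to 0.062 for Rasgrf2, in the Slc30a3 Oprk1 type from −0.049 to 0.33 for Cux2, and in layer 6 from −0.64 to 0.12 for Cux1. The upper layer contrast with the Slc30a3 Oprk1 type ranged from −0.25 to 0.10 for Rorb and from −0.0037 to 0.24 for Rasgrf2. The cause was not tested.

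Shares of upper layer cells with a count were also taken at other thinning depths. At 500 counts they were 7.31% for Cux1, 8.62% for Cux2 (8.88% at 1000 counts), 11.2% for Pou3f2, 7.05% for Lhx2, 8.62% for Rorb and 3.66% for Rasgrf2. At 2000 counts they were 34.4% for Cux1, 19.9% for Cux2, 34.6% for Pou3f2, 19.7% for Lhx2, 21.5% for Rorb and 13.4% for Rasgrf2.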

Other observations

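Values outside the excitatory neurons were as follows. In interneurons of the D1Tom sort, control 1 and control 2 had 53.2 and 60.9 CPM of Rasgrf2 and cKO 1 and cKO 2 had 39.3 and 34.2, while for Cux1 the values were 65.7, 77.0, 92.3 and 102.5 CPM. In the same cells and order Lhx2 was at 10.0, 42.1, 36.7 and 67.7 CPM and Rorb at 10.7, 51.1, 26.1 and 100.0, higher in the second library of each genotype, and these second libraries shared a preparation day. Cluster 1 of D1Tom, which took no name and was led by Pfkp, Ptprk, Adam11 and Plppr3, had a mean of 262 CPM of Rorb and 84.1 of Cux2 at a median of 3128 counts per cell. These values were not tested.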
